A study of Mus musculus with 15 samples.

Results

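The transcripts described here encode proteins of the cytosolic ribosome in mouse B lymphocytes. Members were chosen by gene symbol alone. They are the probe sets whose symbol in the authors' second-screen table is Rpl or Rps with a number and at most a short letter suffix, or Rplp0, Rplp1, Rplp2 or Rpsa, with the S6 kinase genes left out. The rule found 65 genes, 38 of the large and 27 of the small subunit, on 155 of 45037 probe sets. A probe set is a group of short oligonucleotides on the array that reports on 1 transcript or a few related ones. Rplp0 and Rpsa stand in the files under older names (Arbp and Lamr1), so the rule did not reach them, and they are treated with 12 other ribosomal protein genes in that position near the end. Each gene was read from its brightest kept probe set in a screen.

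The cytosolic ribosome joins a small subunit, which decodes the messenger RNA, to a large subunit, which forms the peptide bond. Each subunit is built in the nucleolus from ribosomal RNA and many proteins needed in equal amounts. Ribosomal protein messenger RNAs are among the most abundant in a cell, and most begin with a terminal oligopyrimidine (TOP) tract, a C followed by a run of pyrimidines, through which the kinase mTOR and the RNA-binding protein Larp1 control their translation. Resting lymphocytes keep such messenger RNAs largely untranslated and load them onto ribosomes after activation, a step that an array of total RNA does not measure.

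B cells of the spleen that bind the hapten NP were compared as naive and memory cells in 2 screens, on 15 arrays. In the first screen both groups came from mice with the mVh186.2 heavy chain transgene: 3 arrays (A to C) held naive and 4 arrays (D to G) held memory cells. The naive cells of the second screen, on 4 arrays (A to D), lacked the immature B cell antigen AA4.1 and came from mVh186.2 transgenic mice with a knockout of Jk. The second-screen memory cells, on 4 arrays (EK, FG, HJ and I), arose after mVh186.2 transgenic splenocytes were transferred into mice carrying the AM14 and Vk8R transgenes. The second-screen groups therefore differ in host, transfer and Jk alleles as well as in memory. They also differ in the stated selection, since the sample titles give AA4.1 for the naive group only. The screens differ in sorter and labelling kit. Such differences cannot be told apart. Whether probe values were summarised in the same way in both screens is not stated in the labels. The design text calls the replicates biological. Whether EK, FG and HJ hold pooled mice is not stated, and ages are not given in the labels.

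The data are intensities on a linear scale, given here as log2(intensity + 1), and every change is a memory mean minus a naive mean on that scale. A gene is called where limma's adjusted p lay below 0.05, after Benjamini-Hochberg adjustment over all genes of the screen, among which probe sets without a symbol count singly. Arrays had a median intensity of 103.4 to 153.7 (first screen) or 24.99 to 26.02 (second screen), and precision is limited by their number. The 10 B cell markers were measured in both screens. Their summed linear intensity was 181114 to 237857 over the first and 133607 to 148011 over the second, with overlapping naive and memory ranges. In the first screen 0 of the 10 were called, where 0.828% of all genes were. Their median change there was -0.18 and the lowest -2.10. In the second, 1 was called lower and 0 higher, where 16% and 10.5% of all genes were, with a median change of -0.05. The summed markers of antibody-secreting cells did not overlap: 32101 to 37869 in naive against 42071 to 48093 in memory cells of the first screen, and 10677 to 14097 against 19407 to 21966 in the second. Jchain, the joining chain of secreted antibody, led them with a mean of 10.01 in naive and 13.37 in memory cells of the second screen. Of the 7 genes of that list tested there, Jchain was called higher and Mzb1 lower, and the median change was 0.08. Jchain and Fkbp11 were called higher among 6 tested in the first screen. The summed markers of 4 other cell types were also higher on every memory than on every naive array of the first screen. Those of myeloid cells were 1558 to 2568 in naive and 3482 to 9637 in memory cells, with 0 of 6 genes called, and those of erythroid cells were 4024 to 7842 and 8076 to 31786, with 0 of 4 called higher and 1 lower (Car2). The T cell markers summed to 7204 to 8102 and 8954 to 10079, with 0 of 6 called higher and 1 lower (Lck), and the 1 NK cell marker tested, Prf1, to 93.4 to 131.4 and 151.1 to 266. Their part in the results of that screen was not tested.

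Within the first screen, naive C and memory G stood apart from the rest. The 3′ probe set of Actb exceeded its 5′ probe set by 0.20 and 0.17 on these arrays, and by 1.47 to 2.08 on the other 5. That gap was 1.95 to 2.48 on all 8 arrays of the second screen. The same gap for Gapdh was 1.53, 1.77 and -0.21 on naive A to C of the first screen. It was 0.90, 0.68, 1.16 and -0.32 on memory D to G. In the second screen it was 0.94, 0.84, 0.75 and 0.49 on naive A to D. Memory EK, FG, HJ and I had 0.50, 0.56, 0.66 and 0.44. The part of this difference between the groups in the results was not tested. No member was called in the first screen with naive C and memory G, without both or with the pair as a block, where 0.828%, 5.62% and 4.47% of all genes were called. The median change of the members was -0.03 with them and -0.02 without them.

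Of the 65 genes, 63 passed the filter against dim signal for the first screen, as did 64 for the second. The filter asked for values over the screen-wide median, a log2 intensity of 6.98 or 4.73, on at least 3 or 4 arrays. Rpl3l, the paralog of Rpl3 known from skeletal muscle and heart, passed in neither. Its values lay between 3.32 and 6.21 on the first-screen arrays and between 2.93 and 3.00 on the second-screen arrays, under the threshold on every array. Rps15a, a protein of the small subunit, has 1 probe set here, which read 5.57 to 7.09 and exceeded the threshold of the first screen on 1 array. The same probe set was kept in the second screen, with a mean of 4.94 in naive and 5.06 in memory cells, close to the threshold of 4.73. The other kept members had means of 12.04 or more on the log2 scale.

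Promoter sequences of 46 of the 65 members were matched by symbol in RefSeq, build GRCm38.p6, in windows of 250 bases before to 50 after an annotated start. Ribosomal protein promoters in mammals are known for a start inside a pyrimidine tract and for sites of ETS family and YY1 factors. A C followed by at least 4 pyrimidines, beginning within 5 bases of an annotated start, was present for 21 of the 46 (45.7%) and for 21.2% of all 27025 genes in the table. The letters CCGGAA, the core of ETS family sites, occurred on either strand of the window for 25 of the 46 (54.3%) and for 16.7% of all genes. The letters CCATNTT, a core of YY1 sites, occurred on either strand for 16 of the 46 (34.8%) and for 18.2% of all genes. A tract and CCGGAA can share C bases at an edge, and a match describes letters, not binding.

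The windows below run from 40 bases before to 20 bases from the annotated start, with capitals on the pyrimidine tract at the start or on CCGGAA. They are shown for the gene called in the second screen (Rpl27), the gene next to it in the test (Rpl26), 2 genes with a second probe set that moved (Rps24 and Rps6), a stalk protein (Rplp2) and a paralog (Rps27l). Rps24 and Rps27l each have a further annotated start.
Rpl27, chr11:101442205-101442264, + strand: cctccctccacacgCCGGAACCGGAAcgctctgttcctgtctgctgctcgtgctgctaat
Rpl26, chr11:68901526-68901585, + strand: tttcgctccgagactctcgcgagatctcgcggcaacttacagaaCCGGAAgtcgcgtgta
Rps24, chr14:24490638-24490697, + strand: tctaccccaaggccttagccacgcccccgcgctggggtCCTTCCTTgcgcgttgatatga
Rps6, chr4:86857348-86857407, - strand: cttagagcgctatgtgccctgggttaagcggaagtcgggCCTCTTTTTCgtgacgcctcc
Rplp2, chr7:141447611-141447670, + strand: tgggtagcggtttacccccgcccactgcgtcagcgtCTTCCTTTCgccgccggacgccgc
Rps27l, chr9:66946046-66946105, + strand: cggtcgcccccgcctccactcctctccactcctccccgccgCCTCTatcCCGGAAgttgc
The tracts of Rps6, Rplp2 and Rps24 are 10, 9 and 8 bases long, and that of Rps27l is 5. In these windows Rpl27 and Rpl26 hold CCGGAA and no tract that meets the definition.

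No ribosomal protein gene was called in the first screen. Of 63 members, 0 passed the adjusted threshold by limma and 0 had an unadjusted p below 0.05, where 0.828% of the 15828 genes tested were called and 9.93% had an unadjusted p below 0.05. The changes of the members ran from -0.21 (Rps13) to 0.15 (Rpl41), with 40 below 0 and 23 above 0. That split depended on the scaling: 63 were below 0 and 0 above under median centring, and 32 below and 31 above with quantile normalization. Their median was -0.03, against 0.02 over all genes tested. The median absolute change was 0.044 for the members and 0.211 for all genes. It was 0.114 for genes outside the members with a mean log2 intensity of 13 or more, of which 1.22% of 491 were called. Naive and memory arrays overlapped for all 63 members tested, whereas they did not overlap for 11.3% of all genes.

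**Figure D1:**
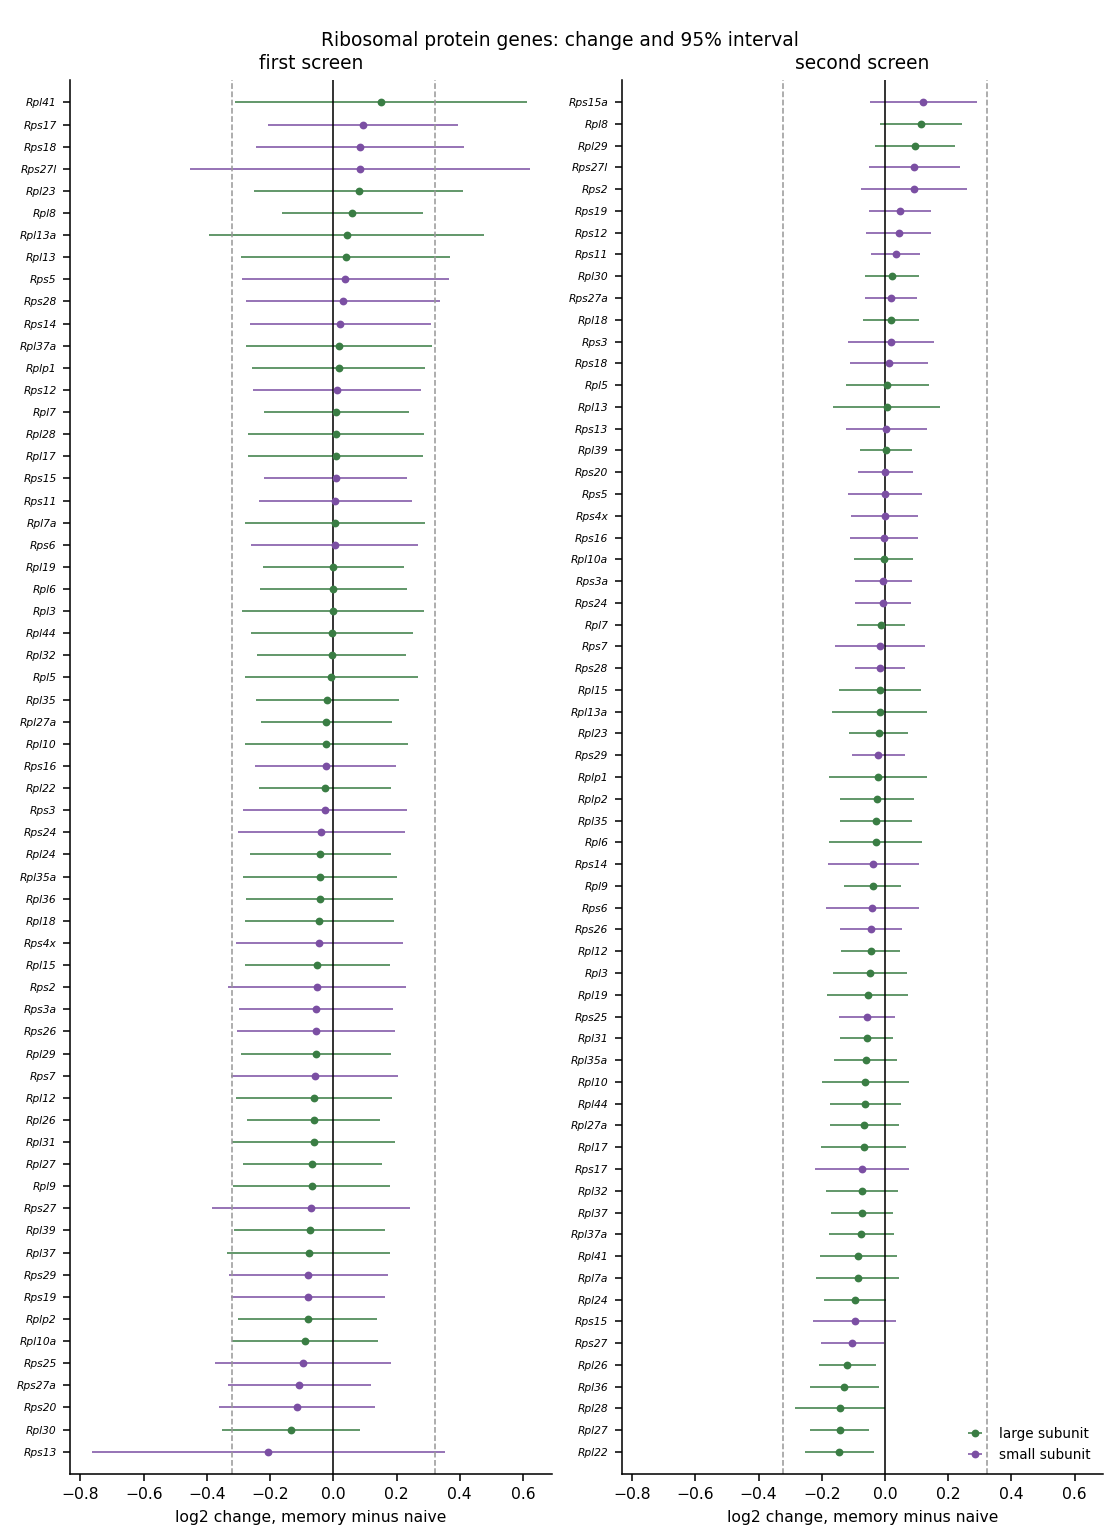
Change of each ribosomal protein gene, memory minus naive on the log2 scale (horizontal axis), with its 95% confidence interval from limma, in the first screen (62 genes drawn, 3 naive and 4 memory arrays) and the second (63 genes drawn, 4 and 4 arrays). Genes are sorted by change within each screen, green marks the large and purple the small subunit, and dashed lines mark a 1.25-fold change. All 63 intervals drawn for the second screen lie between the dashed lines, and 42 of 62 for the first.

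The intervals show how large a change the first screen leaves room for. Of 63 members, 60 had a 95% interval within ±0.5 on the log2 scale and 42 had one within ±0.32, a 1.25-fold change, against 1.69% of all genes tested. The median standard error was 0.112 for the members and 0.258 for all genes. Rps13, Rps27l and Rpl41 had the widest intervals, and the spread within their groups is seen on single arrays. Rps13, a protein of the small subunit, read 15.29, 15.20 and 14.66 on naive A, B and C and 14.92, 15.22, 15.06 and 14.18 on memory D, E, F and G. Its lowest value in each group was on naive C and memory G, and the change was -0.21 ± 0.25 (SE; 95% interval -0.76 to 0.35; limma adjusted p = 0.872). Rpl41, the shortest protein of the ribosome, read 14.32, 14.36 and 14.63 on the naive arrays and 14.12, 14.39, 14.82 and 15.01 on the memory arrays. There naive C and memory G were the highest of their groups, and the change was 0.15 ± 0.21 (SE; adjusted p = 0.887).

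Among the members with the smallest p in the first screen were Rpl30, Rps27a, Rps20, Rpl10a, Rplp2, Rps13 and Rps25, each with an estimate below 0. Rpl30, a large subunit protein, had the smallest. It read 15.44, 15.37 and 15.33 on the naive arrays and 15.13, 15.38, 15.26 and 15.21 on the memory arrays. Memory E lay inside the naive range, and the change was -0.13 ± 0.10 (SE; adjusted p = 0.736). Rps27a, which is made as a fusion with ubiquitin, read 15.42, 15.26 and 15.37 in naive and 15.09, 15.33, 15.29 and 15.26 in memory cells, with a change of -0.11 ± 0.10 (SE; adjusted p = 0.817). In both genes memory D was the lowest of the 7 arrays. Rps20 differed by -0.11 and Rpl10a by -0.09, with adjusted p of 0.827 and 0.860.

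Ribosomal protein genes stayed close to 0 in the second screen too, although far more of the other genes differed there. Of 64 members, 1 was called lower and 0 higher by limma, where 26.6% of the 14657 genes tested were called, 10.5% higher and 16% lower. An unadjusted p below 0.05 was reached by 5 members, all lower, and by 38.1% of all genes. The changes ran from -0.14 (Rpl22) to 0.12 (Rps15a), with a median of -0.02, against -0.02 over all genes. Rps15a was read near the filter threshold, and the next highest change was 0.11 (Rpl8). The median absolute change was 0.042 for the members and 0.160 for all genes. Genes outside the members with a mean log2 intensity of 13 or more were called in 22.6% of 296 cases, and their median absolute change was 0.092.

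The second screen was also the more precise for these genes. All 64 intervals lay within ±0.32, so that each measured change was bounded by 1.25-fold in either direction, and 48 lay within ±0.2. The interval was within ±0.32 for 37.6% of all genes. The median standard error was 0.049 for the members and 0.092 for all genes, and the median SD over arrays was 0.042 in naive (n = 4) and 0.079 in memory cells (n = 4). The highest log2 intensity on any array was 15.86 (first screen) or 16.05 (second), and the median mean of the members was 15.28 and 14.58, near that upper end. Whether changes of such bright probe sets are compressed was not tested. The arrays report each transcript relative to the rest of the RNA, so a change in ribosomal protein RNA per cell that is shared by the other transcripts cannot be seen, and fewer cells of a type cannot be told apart from less RNA per cell.

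**Figure D2:**
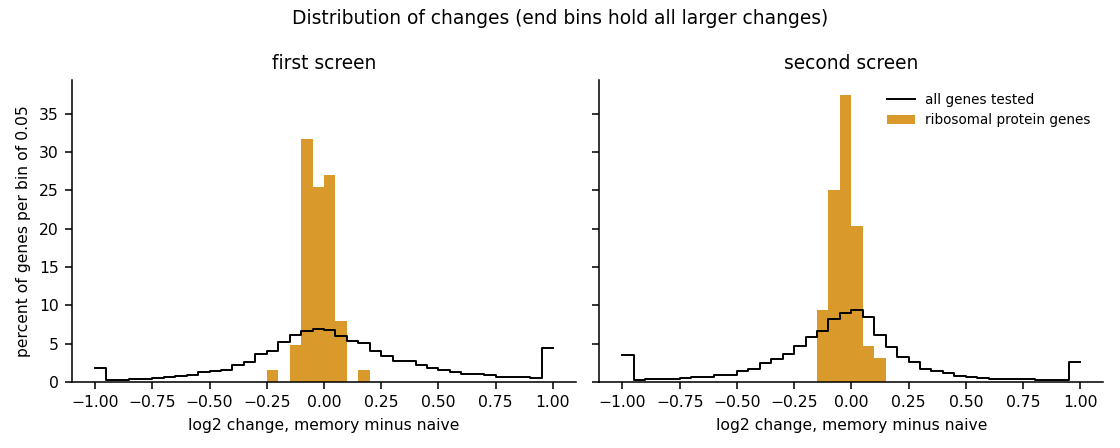
Share of genes (vertical axis, percent) in bins of 0.05 of the log2 change, memory minus naive (horizontal axis), for the ribosomal protein genes (bars) and for all genes tested (line) in each screen. The outermost bins hold all larger changes. No ribosomal protein gene lies outside -0.21 to 0.15 in the first screen or -0.14 to 0.12 in the second.

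Rpl27, a large subunit protein, was the member called lower. It read 14.42, 14.46, 14.43 and 14.36 on naive A to D and 14.25, 14.27, 14.24 and 14.35 on memory EK, FG, HJ and I. All 4 memory arrays were below all 4 naive arrays, the closest pair being naive D and memory I. The change was -0.14 ± 0.04 (SE; limma adjusted p = 0.0323), from 14.42 ± 0.04 to 14.27 ± 0.05 (SD, n = 4 and 4). The call did not hold on leaving out any one of naive A, naive B, naive C, memory EK, memory FG or memory HJ, with adjusted p of 0.0625 to 0.0842. It also did not hold under median centring (adjusted p = 0.0511), with the mean of its probe sets (0.106) or without the intensity trend (0.0857). Nor did it hold in 1 fit of all 15 arrays (0.172), where the estimate stayed at -0.14. That fit takes 1 variance per gene from both screens, and the median standard error of the members was 0.112 for the first against 0.049 for the second. Of all genes it called 1830 of 12933 for the second screen, where the main fit called 3892 of 14657. How far the spread of the first screen raised p in that fit, here and wherever it is cited below, was not tested. In the first screen the change of Rpl27 was -0.07 ± 0.10 (SE; adjusted p = 0.899).

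The 4 other members with an unadjusted p below 0.05 were also lower in memory cells and did not pass the adjusted threshold. Rpl26, a large subunit protein near the exit of the peptide tunnel, read 14.37, 14.39, 14.43 and 14.35 in naive and 14.22, 14.31, 14.23 and 14.30 in memory cells, a change of -0.12 ± 0.04 (SE; adjusted p = 0.0544). With Rpl27 it was 1 of 2 members whose groups did not overlap, where 29.4% of all genes did not. Rpl22, needed in mice for the development of alpha-beta T cells, read 14.21, 14.25, 14.27 and 14.12 in naive and 14.00, 14.10, 14.04 and 14.14 in memory cells. Its groups overlapped at naive D and memory I, with a change of -0.14 ± 0.05 (SE; adjusted p = 0.0566). Rpl36 and Rps27 differed by -0.13 ± 0.05 and -0.10 ± 0.04 (SE; adjusted p = 0.0810 and 0.124).

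Rpl28 and Rpl24, both of the large subunit, came next with changes of -0.14 and -0.10 (adjusted p = 0.132 and 0.147). Rpl8, a large subunit protein near the peptidyl transferase centre, had the smallest p of those with an estimate above 0. It read 13.77, 13.74, 13.82 and 13.76 in naive and 13.81, 14.02, 13.78 and 13.94 in memory cells. Memory FG and I were above every naive array and EK and HJ were within the naive range, with a change of 0.11 ± 0.06 (SE; adjusted p = 0.184). In the large subunit 30 of 37 tested members had an estimate below 0, with a median of -0.05; in the small subunit 16 of 27 did, with a median of -0.002. Over all genes 54.7% of estimates were below 0. Both subunits together had 46 of 64 below 0, and 52 under median centring or 39 with quantile normalization. The difference between the subunits was not tested.

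The members shifted together from array to array. In the first screen memory D was the lowest of the 7 arrays for 56 of 63 members, and the median log2 intensity of the members was 15.05 there against 15.22 to 15.37 on the other 6 arrays. Naive C and memory G were both the highest of their groups for 19 members, among them Rpl13a, Rps2 and Rpl41, and both the lowest for 5, namely Rps13, Rpl44, Rps27l, Rps25 and Rpl37. Memory FG and I of the second screen were both above EK and HJ for 52 of 64 members. The median of the members was 14.62 and 14.67 on FG and I and 14.46 and 14.51 on EK and HJ, and 14.57 to 14.65 on the naive arrays. By these medians memory D lay below the naive range of the first screen and memory E, F and G lay within it. In the second screen EK and HJ lay below the naive range, FG within it and I above it.

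**Figure D3:**
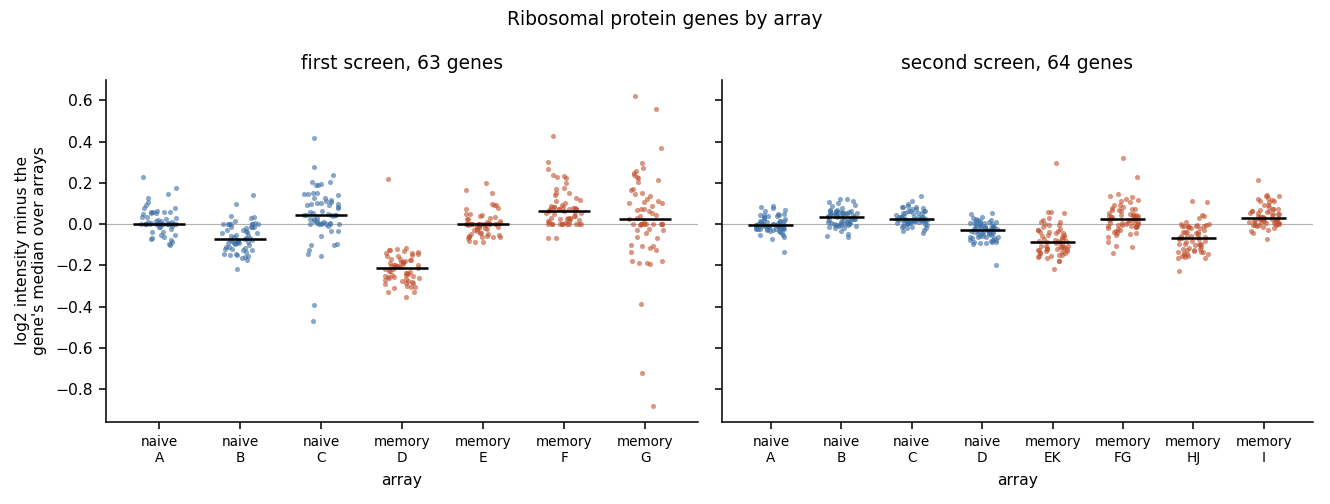
Log2 intensity of each ribosomal protein gene minus that gene's median over the arrays of its screen (vertical axis), by array (blue for naive, red for memory; 1 point per gene, black bar for the median). Memory D lies lowest in the first screen, points spread widely on naive C and memory G, and memory EK and HJ lie below FG and I in the second screen.

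Members known for roles beyond the ribosome, or with a special place in it, were not called in either screen. Rps6, the substrate of the S6 kinases, read 14.85, 14.91, 14.83 and 14.81 in naive and 14.70, 14.96, 14.69 and 14.88 in memory cells of the second screen. The memory values surround the naive ones, with a change of -0.04 ± 0.07 (SE; adjusted p = 0.694). Rpl5, which carries 5S ribosomal RNA and can bind Mdm2, the inhibitor of p53, changed by 0.01 ± 0.06 (SE; adjusted p = 0.938). Rps19, mutated in human Diamond-Blackfan anaemia, changed by 0.05 ± 0.04 (SE; adjusted p = 0.466). The estimates for Rpl10, which joins the large subunit late in its maturation, and Rps3, which in human cells also binds NF-kB, were -0.06 and 0.02 (adjusted p = 0.50 and 0.848). Rpl13a, part of a translational silencing complex in human cells, differed by -0.02 (adjusted p = 0.880).

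Rplp1 and Rplp2 form the flexible stalk of the large subunit that recruits elongation factors. Rplp1 read 14.25, 14.30, 14.30 and 14.19 in naive and 14.12, 14.33, 14.12 and 14.39 in memory cells of the second screen. Rplp2 read 15.49, 15.53, 15.55 and 15.46 in naive and 15.39, 15.55, 15.41 and 15.58 in memory cells. In both stalk genes EK and HJ were below, and FG and I above, every naive array. For Rplp2 memory FG was only just above naive C (15.548 against 15.546). The changes were -0.02 ± 0.07 and -0.03 ± 0.05 (SE, limma adjusted p = 0.854 and 0.758). Rps27l, a paralog of Rps27 that p53 induces, read 11.94, 12.11, 12.05 and 11.88 in naive and 12.14, 11.97, 12.11 and 12.14 in memory cells. Its groups overlapped, with a change of 0.09 ± 0.06 (SE; adjusted p = 0.319), beside -0.10 for Rps27 itself.

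Among the remaining members taken up for their signal, Rpl9, Rpl37a and Rpl12 changed by -0.07, 0.02 and -0.06 in the first screen (adjusted p = 0.907, 0.983 and 0.921). Those of the second screen, Rps29, Rps16 and Rps14, differed by -0.02, -0.002 and -0.04 (adjusted p = 0.722, 0.986 and 0.714). Rps13, which had the widest interval of the first screen, read 15.57 to 15.72 in naive and 15.56 to 15.74 in memory cells of the second, a change of 0.005 ± 0.057 (SE; adjusted p = 0.964).

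The change of the members did not pass the test of a difference between the screens. Of 63 members measured in both, 0 were called with a higher and 0 with a lower change in the second screen by limma, and 0 had an unadjusted p below 0.05, where 1.31% of 12933 genes were called, 0.557% higher and 0.758% lower. Rpl30 had the smallest p: its change was -0.13 at first and 0.02 in the later screen, a difference of 0.16 ± 0.09 (SE; adjusted p = 0.517). Rps27a and Rps19 moved from -0.11 and -0.08 to 0.02 and 0.05, differences of 0.13 each (adjusted p = 0.637 and 0.70). Rpl29 and Rps20 differed by 0.13 and 0.12 (adjusted p = 0.728 and 0.737), and Rpl22 by -0.12 (adjusted p = 0.667). The median standard error of such a difference was 0.113. The 2 screens share no arrays.

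Reading every kept probe set in place of 1 per gene brought out a few dim probe sets that differed in the second screen. The first screen kept 141 probe sets of the members and called 0 of them, where 0.491% of 23813 were called. Of 146 kept in the second, 3 were called higher and 4 lower, where 24% of 22638 were called, 9.61% higher and 14.4% lower. The share of the members' probe sets that was called was thus under the background, and the changes ran from -0.90 to 0.70. These probe sets were chosen after their values were seen.

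Rps24, a small subunit protein whose transcripts differ by splicing near their 3′ end, had the largest rise. Its probe set 1455195_at read 10.49, 10.23, 10.48 and 9.96 on naive A to D and 10.91, 11.06, 10.97 and 11.02 on the memory arrays. All memory arrays lay above all naive arrays, with a change of 0.70 ± 0.11 (SE; adjusted p = 0.00202). The 4 other kept probe sets of Rps24 had means of 14.81 to 15.18 and changes of -0.006 to 0.036 in the same screen. In the first screen 1455195_at read 6.42 to 7.84 and was not kept. The transcript that it measures was not identified here.

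Rps6 gave the largest fall in the same reading. Its probe set 1442044_at read 6.17, 5.64, 5.72 and 4.92 in naive and 4.64, 4.82, 4.73 and 4.65 in memory cells, a change of -0.90 ± 0.22 (SE; adjusted p = 0.0167), and the memory values lie at the filter threshold of 4.73. The 5 other kept probe sets of Rps6 changed by -0.04 to 0.12 (adjusted p = 0.305 or more). Rpl30 and Rpl18 each had a dim probe set that rose, 1438076_at by 0.43 ± 0.10 and 1456447_at by 0.33 ± 0.09 (SE; adjusted p = 0.0125 and 0.0312), beside 0.02 for the bright probe set of each gene. The first-screen changes of these dim probe sets were -0.16 and -0.12. For Rpl36 and Rpl22 the called probe sets, 1416520_x_at and 1416603_at, fell by 0.20 and 0.12 (adjusted p = 0.0440 and 0.0444), close to the changes of the brighter probe sets of the same genes, -0.13 and -0.14. In the first screen 1416520_x_at and 1416603_at changed by 0.05 and -0.05. The Rpl27 probe set called was the one already described.

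**Figure D4:**
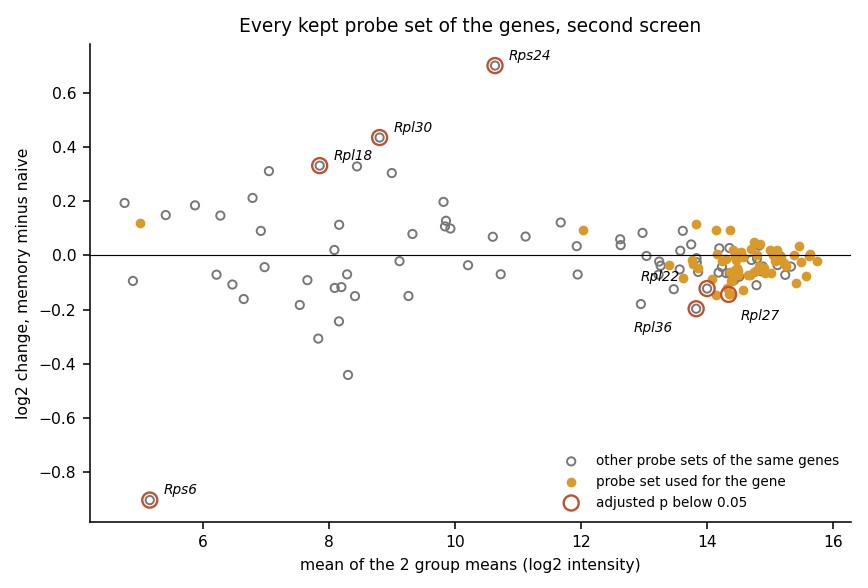
Change of each kept probe set of the ribosomal protein genes in the second screen (vertical axis, log2, memory minus naive) against the mean of the naive and memory means (horizontal axis, log2 intensity). Filled points are the probe set used for a gene, open points the others, and red rings the 7 with an adjusted p below 0.05. The Rps24 and Rps6 probe sets with the largest changes lie at 10.6 and 5.2, away from the bright probe sets near 0.

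Many ribosomal protein genes have processed pseudogenes, and near-identical copies can share signal on an array. In RefSeq, 47 of the 63 members matched by symbol have at least 1 pseudogene named after them, 253 in all, with 23 each for Rpl31 and Rps12. By the array's naming, a suffix _x_at marks probe sets in which some probes can match other transcripts. Of the probe sets used, 21 of 63 (first screen) and 17 of 64 (second screen) were of that kind. With such probe sets and those shared between transcripts (_s_at) set aside where a gene had another, the second screen gave 1 member called higher (Rps24, through 1455195_at) and 2 lower (Rpl22 and Rpl27), where 26.4% of all genes were called.

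Ribosomal protein genes that the rule missed gave 1 call. Of 14 such genes under older symbols, the first screen called 0 of 13 tested, where 0.828% of all genes were called. The second called 1 of 12, where 26.6% were. The called gene was Rplp0, the base of the stalk on which Rplp1 and Rplp2 sit. It read 15.06, 15.06, 15.20 and 15.09 on naive A to D and 15.21, 15.33, 15.21 and 15.32 on the memory arrays of the second screen. Every memory array was above every naive array, with a change of 0.17 ± 0.05 (SE; adjusted p = 0.0359). The call did not hold without naive A, naive B, naive D, memory FG or memory I, with adjusted p of 0.0644 to 0.10. It also did not hold under median centring (0.0686), without the intensity trend (0.0781), by the test behind the authors' deposited p-values (0.0601) or in 1 fit of all 15 arrays (0.158). Rplp0 changed by -0.14 ± 0.11 in the first screen (SE; adjusted p = 0.757). Rpl34, of the large subunit, differed by -0.17 ± 0.06 in the second screen (SE; adjusted p = 0.0555). Fau, Rpl36al and Rack1, whose symbols do not follow the pattern, were not called in either screen. Fau changed by -0.19 in the second screen, and 2 of 14 alternatives other than single-array omissions called it lower.

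Among genes that build the ribosome rather than belong to it, more rose than fell in memory cells of the second screen. Of 54 tested ribosome biogenesis factors, 16 (29.6%) were called higher and 2 (3.7%) lower, where 10.5% and 16% of all genes were. Nhp2, of the particles that modify ribosomal RNA, read 10.65, 10.56, 10.67 and 10.67 in naive and 11.19, 11.15, 11.10 and 11.23 in memory cells, a change of 0.53 ± 0.05 (SE; adjusted p = 7.12e-05). Ddx21, a nucleolar RNA helicase, and Fbl, the methyltransferase fibrillarin, rose by 0.49 ± 0.07 and 0.37 ± 0.06 (SE; adjusted p = 0.000860 and 0.00130). Polr1a, the largest subunit of RNA polymerase I, rose by 0.49. In the first screen 0 of 54 were called, where 0.828% of all genes were, and their median change was 0.06. No count of genes that differed between the screens was made for this list. The median change of the biogenesis factors in the second screen was 0.17, beside -0.02 for the ribosomal proteins. The summed markers of antibody-secreting cells were also higher in memory cells, through Jchain, while Mzb1 of that list was lower (given above). Those of T cells summed to 3223 to 3643 in naive and 5695 to 6435 in memory cells, led by Cd2. Of the 8 T cell genes tested, Cd2 was called higher and 4 (Lck, Cd5, Cd3g and Cd3d) lower, with a median change of -0.83. All 3 NK cell genes tested were called lower, with sums of 198.5 to 305.9 in naive and 89.2 to 115.1 in memory cells. The part of these cells in the result was not tested.

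**Figure D5:**
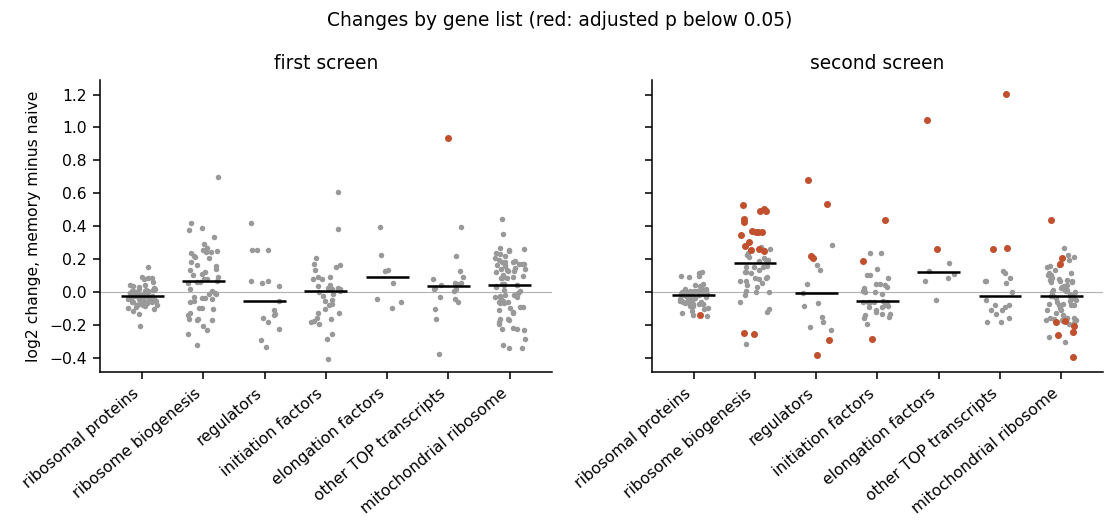
Log2 change, memory minus naive (vertical axis), of each tested gene of 7 lists in each screen; red points have an adjusted p below 0.05 and black bars mark the median of the list. The second-screen biogenesis factors have a median of 0.17 with 16 called higher, whereas the ribosomal proteins have a median of -0.02 and 1 called gene.

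Regulators of ribosomal protein synthesis were mixed in the second screen, with 4 of 17 (23.5%) called higher and 2 (11.8%) lower, where 10.5% and 16% of all genes were. Eif4ebp1, the translational repressor that mTOR inactivates, rose by 0.53 ± 0.07, and Myc, the transcription factor that drives ribosome production, rose by 0.68 ± 0.13 (SE; adjusted p = 0.000801 and 0.00401). Larp1, which binds TOP messenger RNAs, rose by 0.21, and Rheb, the activator of mTOR, by 0.22. Mknk2, a kinase of the cap-binding protein, and Max, the partner of Myc, fell by 0.29 and 0.38. The calls of Myc and Mknk2 did not hold in 1 fit of all 15 arrays (adjusted p = 0.235 and 0.0925), nor that of Mknk2 with the mean of its probe sets (0.204). None of the 17 was called in the first screen, where 0.828% of all genes were.

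Factors of translation elongation and initiation gave calls in the second screen. Of 8 elongation factors and their kinase, 2 (25%) were called higher there and 0 lower, where 26.6% of all genes were called, 10.5% higher: Eef2k, which inhibits elongation factor 2, rose by 1.04 ± 0.11, and Eef1d rose by 0.26 ± 0.06 (SE; adjusted p = 0.000147 and 0.0125). Both calls rest on the probe set read: without _x_at and _s_at probe sets the changes were 0.12 and 0.12 (adjusted p = 0.252 and 0.280). Eef1d also missed the threshold in 1 fit of all 15 arrays (adjusted p = 0.268). Of 36 initiation factors, 2 were called higher and 1 lower (8.33% in all). Eif1a and Eif2s1 rose by 0.44 and 0.19, and Eif3m fell by 0.29. With the mean of the probe sets of a gene, Eif2s1 changed by 0.06 and Eif3m by -0.16 (adjusted p = 0.539 and 0.0784). In 1 fit of all 15 arrays both also missed the threshold (0.222 and 0.0627), as did Eif2s1 without naive A or naive C (0.0504 and 0.0651). Of 20 TOP transcripts outside the members, 3 (15%) were called higher and 0 lower. They were Vim (an intermediate filament), Nap1l1 (a histone chaperone) and Eef1d, with changes of 1.21, 0.26 and 0.26. Vim was also the 1 of 20 called in the first screen, where 0.828% of all genes were. Its change was 0.93 ± 0.15 (SE, limma adjusted p = 0.0246), and no gene of the other translation lists was called there. That call did not hold without memory D, E or F (adjusted p = 0.0659 to 0.106), under median centring (0.396), without the trend (0.115) or by the test behind the deposited p-values (0.179).

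Mitochondrial ribosomal proteins, which belong to a separate ribosome, gave 0 of 76 called in the first screen, where 0.828% of all genes were called. In the second, 3 of 76 were called higher and 6 lower, 11.8% in all where 26.6% of all genes were called. Mrpl9 and Mrpl30 fell by 0.40 and 0.21 and Mrps18b rose by 0.44 (adjusted p = 0.00250, 0.0130 and 0.00346); the calls of Mrpl9 and Mrpl30 did not hold in 1 fit of all 15 arrays (0.146 and 0.619). Their changes ran from -0.40 to 0.44 in the second screen, against -0.14 to 0.12 for the cytosolic ribosomal proteins. The mitochondrial genes had means of 6.73 to 12.88, and all kept cytosolic members but Rps15a had means of 12.04 or more.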

How the data were processed

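Biotin-labelled RNA of sorted mouse B cells was read on 15 oligonucleotide arrays. The authors deposited linear intensity values. Those of the second screen came from GCRMA, per the submitters' processing notes; no source used here names the first screen's software. The p-value that the authors deposited for each screen equals an equal-variance t-test on linear intensity within 0.001; it was used only for that check, and their deposited ratio was not used. After 64 control probe sets were left out, log2(intensity + 1) was filtered and fitted per screen, memory against naive, with limma 3.58.1 (lmFit, eBayes with trend) in R 4.3.3; the difference between screens was a contrast in 1 fit of 4 groups. Genes named are the 8 members of smallest p and the 3 brightest and 3 dimmest per screen, the 6 of smallest p for the difference, members with known roles, and up to 3 genes per list and screen. Some genes that this rule names are not reported here. The members and lists were chosen with earlier results of these data known. Fits were tested on simulated data. Python 3.11.15 with pandas and Matplotlib handled sequences and figures. Alternatives were other filters, scalings, pseudocounts, probe set rules and variance models, leaving out each array, and, for the first screen, leaving out naive C with memory G or fitting that pair as a block.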

Additional observations from a re-analysis of the deposited data

Results flagged for a closer look

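In groups of 4 arrays, a value was taken up whose gap to its nearest neighbour, as a share of the group's range, exceeds Dixon's 95% critical value; 111 groups of values were examined and chance alone takes up about 1 in 20. There were 2 such values. Rps27l on memory FG of the second screen was 11.97 against 12.11 to 12.14 on the other 3 arrays (gap ratio 0.834). Rpl37a on naive D of the second screen was 15.53 against 15.63 to 15.65 (gap ratio 0.837).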

How the results depend on the processing

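No member was called in the first screen, or in the difference between the screens, under any alternative run. Median centring moved the median change of the members in the first screen to -0.22, and that of all genes from 0.02 to -0.18, so that relative to all genes it was -0.04 under both scalings and 0.0003 with quantile normalization; single-array omissions gave -0.07 to 0.03, above 0 without naive C or memory D. In the second screen the median stayed between -0.06 and -0.005. The count of members called lower there was 0 under median centring, without the trend, with a required change of 0.5 and in 1 fit of all arrays; 2 with quantile normalization, without _x_at and _s_at probe sets, with robust eBayes and by the t-test; 3 with a stricter filter; 4 over every probe set (an alternative chosen after seeing the data); and 6 with array weights. Omitting 1 array gave 0 to 3, with 3 without memory I. The count called higher was 1 with the mean of the probe sets, 1 without _x_at and _s_at, and 3 over every probe set. Biogenesis factors called higher in the second screen fell from 16 to 2 with a required change of 0.5 and to 6 in 1 fit of all arrays, and were 11 to 21 with 1 array left out; those called lower were 0 (no filter, quantile, change of 0.5, 1 fit) or 1 (stricter filter, pseudocount of 16, t-test), and 0 to 1 with 1 array left out. In the first screen array weights and 1 fit each called 1 biogenesis factor higher. Calls over all genes, 131 in the first screen, were 889 without naive C and memory G and 707 with that pair as a block, and ranged from 21 to 904 over all alternatives there and 1830 to 4816 in the second. The direction of Rpl27, the only member called in the main fit, did not reverse in the second screen under any alternative. Estimates of some members that were not called changed sign. In the first screen Rps13 went from -0.21 to as high as 0.09, and Rpl41 from 0.15 to as low as -0.09. Others, such as Rpl30 in that screen, kept their sign. No paired analysis was possible because the naive and memory arrays of a screen share no replicate letters; the block of naive C and memory G marks arrays that stand apart, not paired samples. Dim probe sets such as those of Rps15a and Rps6 lie near the signal floor, which limits what can be read from them.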
